A study of Mus musculus with 120 samples.

Results

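Chromatin regulators with a high level shortly after the onset of cytokine secretion were examined in single group 2 innate lymphoid cells (ILC2s), lymphocytes that answer the tissue alarmin IL-33 with type 2 cytokines. The set holds 8 of the 46078 gene identifiers in the count data: the histone H3.3 genes H3f3a and H3f3b, the histone lysine demethylase genes Kdm2b, Kdm2a and Kdm6b, and Pbrm1, Phf20l1 and Chd2. They were chosen by their pooled levels in these same cells, some for a transient level 30 min after onset and others as close relatives, so the values below describe the choice and no test was made on them. The data are 120 libraries, each from 1 cell, of ILC2s from wildtype C57BL/6 mice. They were sorted from the pooled mesentery of 20 animals for c-Kit and Sca-1 in the absence of lineage markers. All were kept for several months in culture with IL-2, the pre-stimulation cells included. The cells were picked during live imaging of the secretion of either IL-13 or IL-5, and are called IL-13 cells and IL-5 cells after the cytokine imaged. Each kind comprised 5 pre-stimulation cells and 11 transition cells each at 30, 60 and 90 min after secretion began in that cell. There were also 11 activated cells that were secreting and 11 silent cells that were not, both taken 8 h after stimulation began. All but the pre-stimulation cells had been stimulated with IL-33 and IL-2, and no gene was altered in any group. The labels tie no cell to an animal or culture, so each group counts as 1 sample and values carry counting intervals in place of p-values. Single cells set many pooled levels: of the 64 levels above 0 of the 6 genes other than the H3.3 genes, 45 moved by over 1.5 times when 1 cell was left out, 3 of them at 30 min, and of the 24 levels of the H3.3 genes 0 did.

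Every nucleosome wraps DNA around histones, and the marks on those histones, the proteins that remove or read them and the motors that slide nucleosomes together set how open a gene is. H3.3 is the histone H3 form that can be placed outside DNA replication, at active genes, and H3f3a and H3f3b encode it. Kdm2b and Kdm2a remove methyl groups from lysine 36 of histone H3 and bind unmethylated CpG islands, and Kdm2b brings the polycomb complex PRC1.1 there. Kdm6b (also named JMJD3) removes the repressive mark on lysine 27 of histone H3 and is known as a gene induced by inflammatory signals in immune cells. Pbrm1 is the bromodomain subunit that defines the PBAF form of the SWI/SNF remodeller, Phf20l1 is a reader of methylated lysine related to Phf20 of the NSL complex, and Chd2 is a chromodomain remodeller linked to H3.3 deposition.

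Levels are given as counts scaled to 1000000 gene reads (CPM), either pooled over the cells of a group with a 95% Poisson interval or for single cells. Pooled groups held 964383 to 3732032 gene reads, so that a count of 0 allows a pooled level of up to 0.804 to 3.11 CPM. The kit reads 3' ends without molecular identifiers, so intervals cover counting error only and the spread between cells is far wider. In values per cell, 3 near-empty cells under 10000 gene reads were left out, which leaves 10 IL-5 cells each at 30 min, at 60 min and in the silent state. All 10 ILC2 markers examined, among them Gata3, Rora and Il1rl1, reached 50 CPM in at least 1 group, with a summed level of 3789 to 9457 CPM over the 12 groups. The 4 B cell and 4 stromal markers were at 0 in every group, and of the T cell markers Cd4 and Cd8a were at 0, Cd3e reached 3.02 CPM and Trac 8.22 CPM, while Trbc2 lay at 262 to 1362 CPM. Among myeloid and mast cell markers, Cd68 reached 38.2 CPM and Fcer1a 326 CPM, and both were at 0 in all 30 min cells. Lyz2, Csf1r, Itgam, Mcpt4 and Tpsb2 were at 0 in every group and Cpa3 reached 10.2 CPM. The 2 dates in the titles of each kind of cell are given as the first and the second title date where they part a result, and pre-stimulation cells carry the first alone. IL-13 and IL-5 cells share no title date, so a difference between the 2 kinds of cell cannot be told apart from one between dates.

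The pooled level of H3f3b was highest at 30 min in both kinds of cell. In IL-13 cells its lead over 60 min was wide on the second title date and smaller on the first. In IL-5 cells its lead over 60 min rested on 1 cell. H3f3b lies on chromosome 11 (chr11:116021912-116027962, minus strand, GRCm38), and no other annotated gene overlaps it. Among IL-13 cells the 5 pre-stimulation cells had 581, 1404, 2058, 2304 and 3732 CPM, whereas the 11 cells at 30 min ranged from 1256 to 50742 CPM with a median of 18887. All but 1 of the 30 min cells, 10 of 11, lay above the highest pre-stimulation, activated and silent cell. The pooled level was 2123 CPM before stimulation, 22092 CPM (interval 21915 to 22271) at 30 min, 7938 CPM at 60 min, 3327 CPM at 90 min, 1472 CPM in activated cells and 1799.9 CPM in silent cells. The 30 min level was thus 10.4-fold above pre-stimulation, a log2 ratio of 3.38 (counting interval 3.32 to 3.44), and the ratio stayed between 3.05 and 3.74 when any 1 cell was left out. The ratio to activated cells was 3.91 (3.20 and 4.32 on the first and the second title date) and that to silent cells 3.62 (3.26 and 3.79). On the first title date the levels at 30 and 60 min were 16274 and 12012 CPM, and on the second 25524 and 5891 CPM. The order from 30 over 60 to 90 min was kept whichever cell was left out, while silent cells overlapped with both pre-stimulation and activated cells, which did not overlap with each other.

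IL-5 cells also had their highest pooled H3f3b level at 30 min, a smaller one that did not stand apart from 60 min. The pre-stimulation cells had 0, 1293, 1305, 1639 and 3155 CPM, and the 10 cells at 30 min had 1570 to 12397 CPM with a median of 3238. Here 6 of 10 cells lay above every pre-stimulation cell. The pooled level went from 1679.6 CPM before stimulation to 4335 CPM at 30 min, with 3171, 2676, 1748 and 2131 CPM at 60 min, at 90 min, in activated and in silent cells. The log2 ratio of 30 min to pre-stimulation was 1.37 (1.30 to 1.44), that to activated cells 1.31 and that to silent cells 1.02. Without the cell of 12397 CPM, replicate 5, they were 0.93, 0.87 and 0.58, all under 2-fold. The ratio to 60 min went from 0.45 to 0.0082 without that cell and was 0.91 and 0.018 by title date. The median cell at 60 min, at 3537 CPM, was above that at 30 min, and 4 of 10 cells at 30 min lay above it. By title date the ratio to activated cells was 1.75 and 0.90 and that to silent cells 1.39 and 0.66. The 30 min level of IL-13 cells exceeded that of IL-5 cells by 2.35 on the log2 scale (2.32 to 2.38, and 2.02 to 2.79 when any 1 cell was left out), a difference between 2 pools that was not tested against the spread between cultures.

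**Figure D1:**
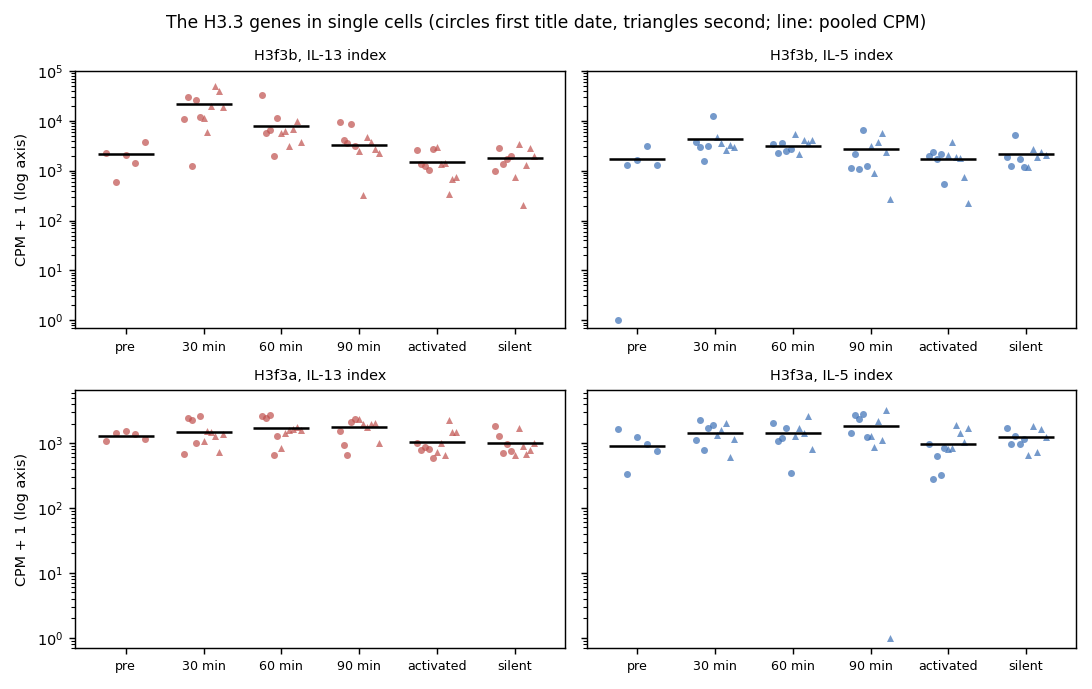
CPM + 1 of H3f3b (top) and H3f3a (bottom) in single cells on a log axis, by state, for IL-13 cells (left) and IL-5 cells (right). Circles and triangles are cells of the first and the second title date, and black lines the pooled CPM: H3f3b stood at 22092 CPM at 30 min in IL-13 cells against 4335 in IL-5 cells, while H3f3a stayed between 906 and 1858 CPM in all 12 groups.

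H3f3a, on chromosome 1 (chr1:180800832-180813943, minus strand, GRCm38), had no such course. Its pooled level in IL-13 cells was 1284 CPM before stimulation, 1493 at 30 min, 1679 at 60 min, 1775 at 90 min, 1047 in activated and 1009 in silent cells. Its cells at 30 min had 666 to 2655 CPM with a median of 1392, which spans the 1064 to 1518 CPM of the pre-stimulation cells. Pooled levels in IL-5 cells were 906, 1430.0, 1405, 1858, 984 and 1252 CPM in the same order. The log2 ratio of 30 min to pre-stimulation was 0.22 and 0.66, under 2-fold in both kinds of cell, and its highest state was 90 min in both. The genes Gm17275 and H3f3aos lie on the opposite strand of H3f3a, and the strand setting of the counts is not given in the sources used here.

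Both genes encode the same protein. Their coding sequences, 408 bases each without the stop codon, share 313 bases (76.7%), and all 136 codons name the same amino acid. The other 95 bases differ. Reads that aligned to more than 1 place were not counted, and of the 3 annotated processed pseudogenes of H3.3 those named H3f3c and H3f3a-ps2 had 0 reads and H3f3a-ps1 5 reads over all cells. Of the reads of both genes together, H3f3b took 62.3% (exact binomial 95% interval 60.6 to 64.0) in pre-stimulation IL-13 cells, 93.7% (93.5 to 93.9) at 30 min, 82.5% at 60 min, 65.2% at 90 min, 58.4% in activated and 64.1% in silent cells. At 30 min 8 of 11 cells had a share over 90%, and the lowest cell 35.3%. The shares in IL-5 cells were 65.0%, 75.2%, 69.3%, 59.0%, 64.0% and 63.0%, and 0 of 10 cells at 30 min passed 90%.

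**Figure D2:**
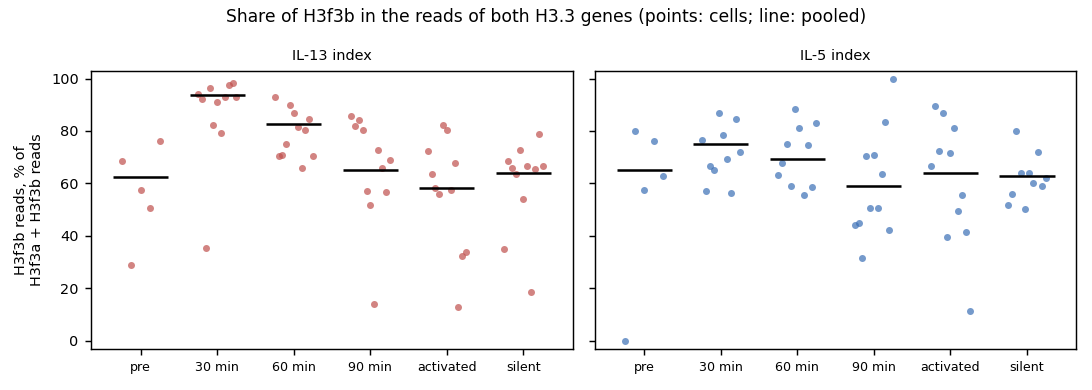
Share of H3f3b in the reads of both H3.3 genes, in percent, for single cells (points) and pooled (black lines), by state and kind of cell. In IL-13 cells the pooled share stood at 93.7% at 30 min against 62.3% before stimulation, and in IL-5 cells at 75.2% against 65.0%.

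Because both genes give the same protein but differ in course, the 250 bases before their annotated starts are shown, from RefSeq (build GRCm38.p6, minus strand, written 5′ to 3′ toward the start). Capitals mark CCAAT or its reverse ATTGG, the TATA box letters TATAAA and the octamer ATGCAAAT, a choice of motifs made after the sequences were read. RefSeq places the H3f3b start inside the longer span that GENCODE gives the gene. The H3f3b stretch is chr11:116024505-116024754 and the H3f3a stretch chr1:180813606-180813855.
H3f3b: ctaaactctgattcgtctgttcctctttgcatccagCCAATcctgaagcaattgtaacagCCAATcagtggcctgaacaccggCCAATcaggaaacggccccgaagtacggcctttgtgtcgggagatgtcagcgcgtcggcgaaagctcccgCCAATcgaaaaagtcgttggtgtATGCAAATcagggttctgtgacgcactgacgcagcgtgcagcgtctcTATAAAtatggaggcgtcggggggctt
H3f3a: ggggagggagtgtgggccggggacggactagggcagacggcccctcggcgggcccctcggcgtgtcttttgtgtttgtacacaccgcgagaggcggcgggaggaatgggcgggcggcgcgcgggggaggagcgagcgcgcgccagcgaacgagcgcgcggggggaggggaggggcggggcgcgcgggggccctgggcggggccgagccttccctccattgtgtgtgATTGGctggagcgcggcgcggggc
The H3f3b window of 300 bases, which runs 50 bases past the start, held 4 CCAAT matches, 1 TATA match beginning 27 bases before the start and 1 octamer, and no GC box (GGGCGG on either strand). The H3f3a window held 1 CCAAT match on the other strand and 6 GC boxes, overlaps counted, with 74.0% G and C against 55.0% in the H3f3b window. Of the 32851 windows of that length in the table, 37.4% hold a CCAAT, 13.6% the TATA letters, 1.74% the octamer and 35.7% a GC box, and the median window has 52.7% G and C. Of the 8 genes 4 had windows in the table (H3f3a, H3f3b, Pbrm1 and 4 starts of Kdm2b, 7 windows in all). None of the 7 held the AP-1 letters TGANTCA, the CRE letters TGACGTCA, the NF-kB letters GGANTTTCC or the GATA letters AGATAA on either strand, which 7.81%, 1.79%, 1.25% and 11.2% of all windows hold. Kdm2a, Kdm6b, Phf20l1 and Chd2 are not in the table.

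Kdm2b was the demethylase gene with reads in every cell at 30 min and with its highest state there in both kinds of cell. It lies at chr5:122870665-122989823 on the minus strand (GRCm38), where 4 annotated genes overlap it, 2 of them on the same strand. In IL-13 cells the 5 pre-stimulation cells had 0, 0, 5.92, 11.9 and 297 CPM, and the 11 cells at 30 min had 125 to 2362 CPM with a median of 1067. All but 1 of the latter lay above the highest pre-stimulation cell and above the highest silent cell of 462 CPM, and 8 of 11 above the highest activated cell of 649 CPM. The pooled level was 53.9 CPM before stimulation, 1088 (1049 to 1128) at 30 min, 805 at 60 min, 238 at 90 min, 76.1 in activated and 79.3 in silent cells. The 30 min level was 20.2-fold above pre-stimulation, 14.3-fold above activated and 13.7-fold above silent cells. Of the 52 pre-stimulation reads 94.2% came from 1 cell, replicate 3, without which the log2 ratio went from 4.33 to 8.18. Replicate 4 of the activated cells gave 77.0% of their reads and replicate 4 of the silent cells 49.5% of theirs, and without them the log2 ratios went from 3.84 to 5.82 and from 3.78 to 4.64. By title date the ratio of 30 to 60 min was -0.05 and 0.87, and that to activated cells 3.06 and 5.47.

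All 10 IL-5 cells at 30 min had Kdm2b reads, at 135 to 1265 CPM with a median of 574. Of the pre-stimulation cells 4 had 0 reads and the fifth 173 CPM. The pooled levels were 43.7 CPM before stimulation, 581 (556 to 606) at 30 min, 195 at 60 min, 390 at 90 min, 1.61 in activated and 53.2 in silent cells. Activated cells held 6 reads in all, in 2 of 11 cells, and every 30 min cell lay above every activated cell. The log2 ratio of 30 min to activated cells was 8.50 (7.37 to 9.94), and that to pre-stimulation 3.73 (3.34 to 4.15). The 90 min level stayed above the 60 min level whichever cell was left out, whereas pre-stimulation cells overlapped with both silent and activated cells, which did not overlap with each other. Without pre-stimulation replicate 2 the ratio to pre-stimulation was 7.45, and without activated replicate 1 that to activated cells 9.36. The median cell at 90 min had 158 CPM, against 101 CPM at 60 min, and 3 of 11 cells at 90 min had no read.

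Kdm2a, the paralogue of Kdm2b on chromosome 19 (chr19:4314419-4398285, minus strand, GRCm38), was highest in other states than 30 min, in activated IL-13 cells and in IL-5 cells at 60 min. In IL-13 cells it had 15 reads there, 14 of them in replicate 3, a pooled 5.6 CPM against 11.4 CPM before stimulation, 3.92 at 60 min, 40.2 at 90 min, 207 in activated and 115 in silent cells. The lead of activated over silent cells rested on activated replicate 9. Without it the activated level was 100.5 CPM and the log2 ratio of activated to silent cells went from 0.85 to -0.19. Silent replicate 6 gave 74.0% of the silent reads, and the level was 33.7 CPM without it, and at 90 min 17.8 CPM without replicate 11. The log2 ratio to pre-stimulation was -1.03 with a counting interval that spans 0 (-2.25 to 0.24), and that to activated cells -5.20 (-6.05 to -4.47). The latter rested on the second title date, in which activated cells had 333 CPM, while those of the first had 11.9 CPM and the ratio there was 0.24. Pre-stimulation IL-5 cells had 0 reads, the 30 min cells 38.3 CPM, with reads in 4 of 10 cells, and 60 min, 90 min, activated and silent cells 99.2, 54.7, 79.0 and 22.8 CPM. Against a floor of 3 reads, the 30 min level of IL-5 cells was at least 15.5-fold above pre-stimulation, a log2 ratio of 3.95 (lower counting limit 3.63) that was 2.56 without replicate 11 at 30 min. There the log2 ratio to activated cells was -1.05, with -2.44 without replicate 11 at 30 min, -0.47 without activated replicate 11, and -1.86 and -0.39 by title date. The IL-5 silent level was 4.34 CPM and the 30 min level 14.6 CPM without replicate 11 of each. Sorted by level (60 min, activated, 90 min, 30 min, silent), each of these 5 states overlapped with the next when single cells were left out. The log2 ratio of IL-13 cells to pre-stimulation was -3.24 without replicate 3 at 30 min and 0.58 without pre-stimulation replicate 3, and that to activated cells -7.42 and -4.16 without replicate 3 at 30 min and without activated replicate 9.

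Kdm6b (chr11:69398508-69413675, minus strand, GRCm38, overlapped by Kdm6bos on the other strand) had 0 reads in all 10 pre-stimulation cells. At 30 min 10 of 11 IL-13 cells had reads, from 0 to 1293 CPM with a median of 235, and 9 of 10 IL-5 cells, from 0 to 827 CPM with a median of 273. The pooled levels were close, 321 (300.2 to 343) and 310.3 CPM (292 to 329), and a log2 difference of 0.05 between the 2 kinds of cell had a counting interval of -0.08 to 0.18. Against a floor of 3 reads over the group, the 30 min cells were at least 103-fold higher than pre-stimulation cells for IL-13 and at least 125-fold higher for IL-5, where the lower 95% counting limits of the log2 ratios were 6.39 and 6.67. The log2 ratios to activated and silent cells were 0.86 and 1.86 in IL-13 cells and 1.59 and 1.28 in IL-5 cells. The first of these was 1.45 without activated replicate 10 and 0.42 without replicate 4 at 30 min, and 1.60 and 0.18 by title date. Without silent replicate 9 the ratio to silent IL-13 cells was 2.69, and in IL-5 cells it was 2.29 to activated cells without replicate 8 and 1.89 to silent cells without replicate 2. After 30 min the 2 kinds of cell took different orders. IL-13 cells went to 249, 148, 178 and 88.8 CPM at 60 min, at 90 min, in activated and in silent cells, and IL-5 cells to 37.2, 458, 103 and 128 CPM. The 458 CPM at 90 min took 46.9% of its reads from 1 cell at 5902 CPM, replicate 11, and without it the 30 min level was the higher by 0.30 on the log2 scale, in place of a log2 ratio of -0.56. On the first title date that ratio was 1.82 and on the second -1.62.

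**Figure D3:**
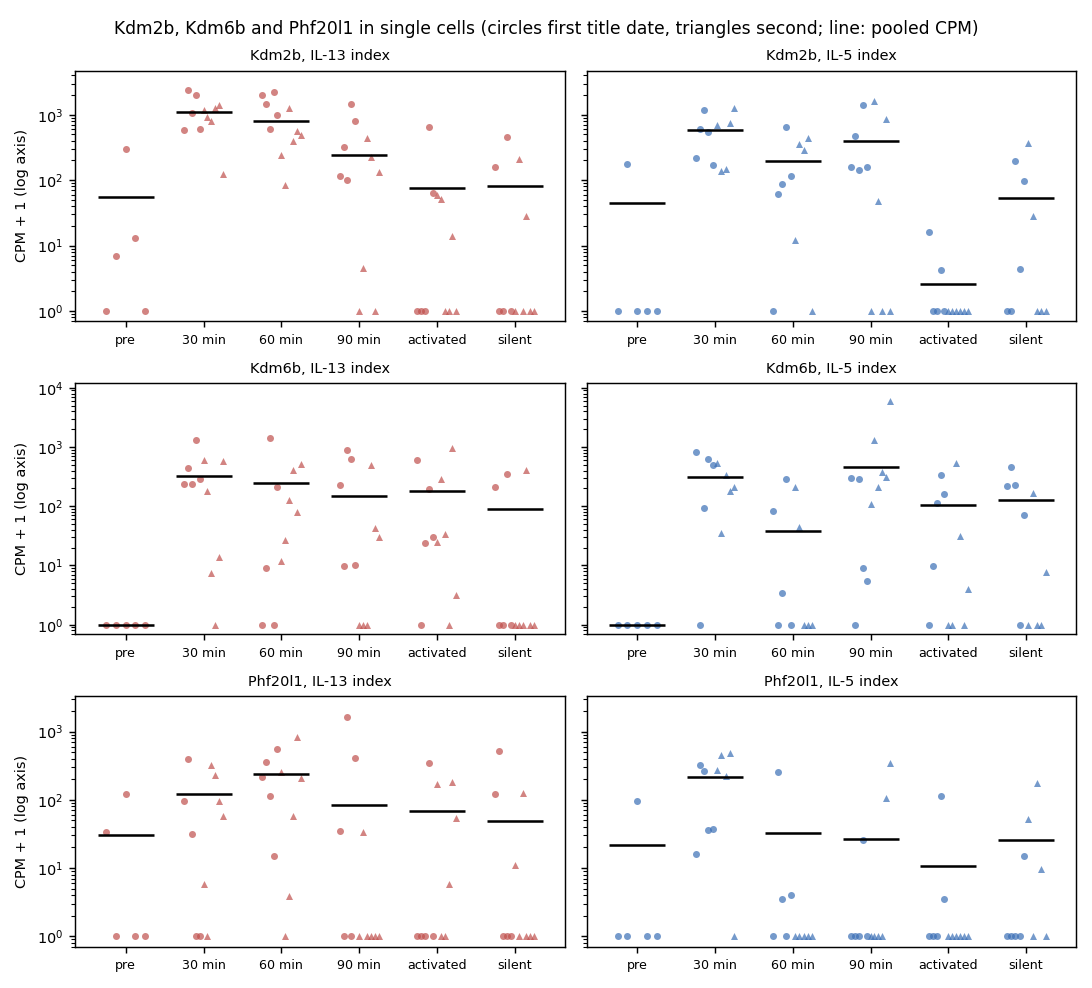
CPM + 1 of Kdm2b, Kdm6b and Phf20l1 in single cells on a log axis, by state, for IL-13 cells (left) and IL-5 cells (right), with circles and triangles for the first and the second title date and black lines for pooled CPM. All 21 cells at 30 min had Kdm2b reads, at 125 CPM or more, while all pre-stimulation cells sat at 0 for Kdm6b.

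Pbrm1 (chr14:31019138-31121592, plus strand, GRCm38) differed between the 2 kinds of cell before stimulation. Its pre-stimulation IL-13 cells had 0, 0, 0, 18.5 and 179 CPM, and the IL-5 cells 3.26, 3.78, 315, 490 and 1016 CPM. At 30 min the pooled level was 179.7 CPM with reads in 8 of 11 cells, and 98.3 CPM with reads in 8 of 10 cells. The log2 ratio to pre-stimulation was 1.85 (1.42 to 2.31) in IL-13 cells and -1.91 (-2.11 to -1.70) in IL-5 cells. With the pre-stimulation cells of both kinds pooled, that of IL-13 cells became -0.34. Leaving out pre-stimulation replicate 1 took the IL-13 ratio to 5.01, and leaving out pre-stimulation replicate 4 took the IL-5 ratio to -0.72. No read was found in the 11 IL-13 cells at 90 min or in the 10 IL-5 cells at 60 min, which allows up to 1.80 and 0.878 CPM. Against a floor of 3 reads, the 30 min cells were at least 99.8-fold and at least 112-fold higher than these, with lower counting limits of 6.34 and 6.5 on the log2 scale. Reads were present at the other times, at 70.2 CPM in IL-13 cells at 60 min and 122 CPM in IL-5 cells at 90 min. The latter exceeded the IL-5 level at 30 min, though these 2 states overlapped when single cells were left out. Activated cells had 71.1 and 19.6 CPM and silent cells 126 and 67.5 CPM. Silent replicate 11 gave 69.7% of the silent IL-13 reads, and without it the level was 42.3 CPM and the log2 ratio of 30 min to silent cells went from 0.51 to 2.09. In IL-5 cells the activated level was 8.75 CPM without replicate 7 and the silent level 37.1 CPM without replicate 10. In IL-13 cells the ratio to activated cells was -0.19 on the first title date and 5.76 on the second, and 4 annotated genes, Gnl3 and Smim4 among them, overlap Pbrm1 on the opposite strand.

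Phf20l1 (chr15:66577560-66647976, plus strand, GRCm38), which no annotated gene overlaps, was highest at different times. Of IL-5 cells 9 of 10 at 30 min had reads, up to 479 CPM with a median of 242, against 1 of 5 pre-stimulation cells, at 94.4 CPM. Its pooled level was 20.6 CPM before stimulation, 214 (199 to 229) at 30 min, and 31.3, 25.1, 9.65 and 24.8 CPM at 60 min, at 90 min, in activated and in silent cells. The 30 min level was 10.4-fold above pre-stimulation, 22.2-fold above activated and 8.62-fold above silent cells, and it lay above each other state whichever cell was left out. At 60 min replicate 2 gave 98.1% of the reads. Replicate 4 gave 97.2% of the activated reads and replicate 9 gave 77.6% of the silent ones. Without pre-stimulation replicate 3, activated replicate 4 or silent replicate 9 the log2 ratios went from 3.37 to 6.08, from 4.47 to 7.93 and from 3.11 to 5.10. In IL-13 cells the level was 29.0 CPM before stimulation, 120.3 at 30 min, 238 at 60 min, 84.1 at 90 min, 68.3 in activated and 47.6 in silent cells. The 90 min level was 35.3 CPM without replicate 3, which gave 59.3% of its reads, the activated level 40.3 CPM without replicate 4, and the silent level 21.9 CPM without replicate 2. The log2 ratio of 30 min to silent cells, 1.34, was 0.99 without replicate 8 at 30 min and 2.46 without silent replicate 2, and -0.018 and 2.83 by title date. In these cells 60 min was the highest state and 30 min was lower than it by 0.98 on the log2 scale (0.79 to 1.18).

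Chd2 (chr7:73426638-73541830, minus strand, GRCm38, overlapped by 5 annotated genes, 4 on the same strand) had 0 reads in the 10 pre-stimulation cells. Of IL-5 cells 8 of 10 had reads at 30 min, up to 355 CPM with a median of 85.3, and 0 of 11 activated cells had any. The pooled 112 CPM (101 to 123) was at least 45.2-fold above pre-stimulation and at least 139-fold above activated cells against a floor of 3 reads (lower counting limits of 5.19 and 6.81 on the log2 scale), with 33.4, 66.7 and 16.6 CPM at 60 min, at 90 min and in silent cells. The log2 ratio of 30 to 90 min, 0.74, was 2.13 and -0.89 by title date. Of the silent reads 84.3% came from replicate 10, and without it the log2 ratio to silent cells went from 2.75 to 5.31. Of IL-13 cells 5 of 11 had reads at 30 min, all of the second title date, and 62.6% of the reads came from replicate 11. The pooled levels there were 82.9 CPM at 30 min, 124 at 60 min, 44.4 at 90 min, 32.3 in activated and 180.2 in silent cells. Of the silent reads 96.6% came from replicate 6 at 1521 CPM, and without that cell the ratio of 30 min to silent cells turned from -1.12 to 3.60, while it was -2.38 without replicate 11 at 30 min.

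**Figure D4:**
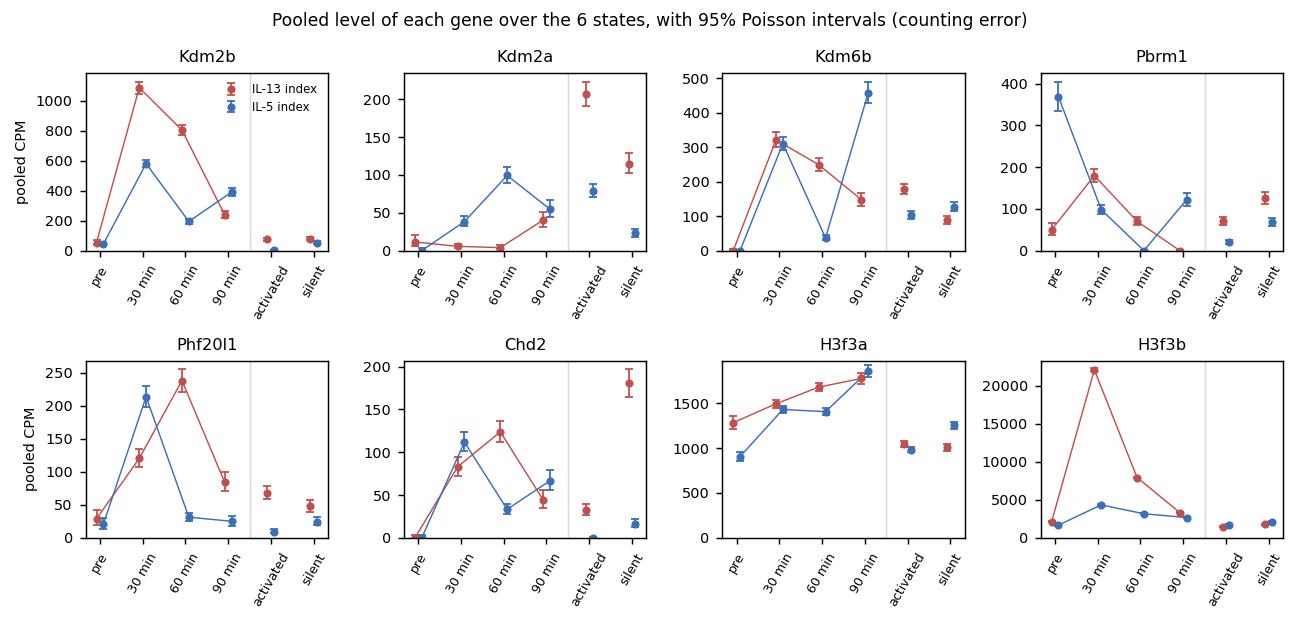
Pooled CPM of the 8 genes in the 6 states, each panel with its own axis from 0, for IL-13 cells (red) and IL-5 cells (blue), with 95% Poisson intervals that cover counting error only. Lines join pre-stimulation to 90 min. Pooled levels of Kdm2b and H3f3b were highest at 30 min in both kinds of cell, and those of H3f3a and Kdm2a in neither. The lead of H3f3b over 60 min in IL-5 cells, 0.45 on the log2 scale, was 0.0082 without replicate 5.

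The counts below are set beside all genes averaging 10 CPM or more across the 6 states, 6490 in IL-13 cells and 6529 in IL-5 cells, which include all 8. The background is wide, as the shares of all genes show. In IL-13 cells 6 of 8 genes were at least 2-fold above pre-stimulation at 30 min, as were 34.6% of all genes, and 1, Kdm2a, was at least 2-fold below, as were 28.7%. In IL-5 cells 6 of 8 were above (all but Pbrm1 and H3f3a, Kdm2a thus among them), against 38.8% of all genes, and Pbrm1 was below, against 26.7%. Genes with at most 3 reads in both groups, 7.73% of all genes in IL-13 cells and 5.59% in IL-5 cells for this pair of states, got no fold and stayed in the total. Above activated cells were 4 genes (Kdm2b, Pbrm1, Chd2 and H3f3b) in IL-13 cells, against 28.2% of all genes, and 6 in IL-5 cells, against 28.4%. For IL-13 cells the log2 ratio of Chd2 to activated cells, 1.36, was 0.10 without replicate 11 at 30 min and -4.61 and 4.67 by title date, and that of Pbrm1, 1.34, was 0.82 without replicate 8 at 30 min. The count above activated cells ranged from 3 to 6 in IL-13 cells, the latter without activated replicate 10, and from 5 to 6 in IL-5 cells when single cells were left out. Kdm2a was below activated cells in both, where 31.3% and 24.6% of all genes were, but in IL-5 cells at a log2 ratio of -1.05 that was -0.47 without activated replicate 11. Above silent cells were 4 and 5 genes (3 to 5 and 4 to 6 without single cells), against 24.5% and 26.0% of all genes, and above 90 min cells 4 and 1, against 26.7% and 22.8%.

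Kdm2b and H3f3b were at least 2-fold above pre-stimulation, activated and silent cells at once in both kinds of cell, a pattern held by 9.24% of all genes in IL-13 cells and 9.17% in IL-5 cells. In IL-5 cells Kdm6b, Phf20l1 and Chd2 held it too, so that the counts were 2 and 5 of 8. In IL-13 cells the count was 4 without activated replicate 10 and 3 without any of 7 other single cells. The IL-5 count was 4 without replicate 5 at 30 min, without any of 4 single silent cells and on the first title date. By date the IL-5 ratio of Kdm6b to silent cells was 0.97 and 2.37, and that of Chd2 5.50 and 0.60. The highest of the 6 states was 30 min for Kdm2b, Kdm6b, Pbrm1 and H3f3b in IL-13 cells and for Kdm2b, Phf20l1, Chd2 and H3f3b in IL-5 cells, against 13.8% and 14.7% of all genes. Leaving out single cells gave 3 to 4 genes in IL-13 cells and 4 to 5 in IL-5 cells. In IL-5 cells the lead of Chd2 over 90 min was reversed on the second title date, with log2 ratios of 2.13 and -0.89 by date. In IL-13 cells Kdm6b lost its lead over 60 min without replicate 4 at 30 min (log2 ratio from 0.37 to -0.068, and -0.016 on the second title date), and Pbrm1 its lead over silent cells without replicate 8 (from 0.51 to -0.0011). The median log2 ratio of the 8 genes over pre-stimulation was 2.72 and 3.55, against 0.09 and 0.31 over all genes. Over activated cells it was 1.1 and 1.96, against -0.18 and 0.05, and over silent cells 0.95 and 1.15, against -0.36 and -0.06. As the choice used these contrasts, nothing is read from these shares.

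**Figure D5:**
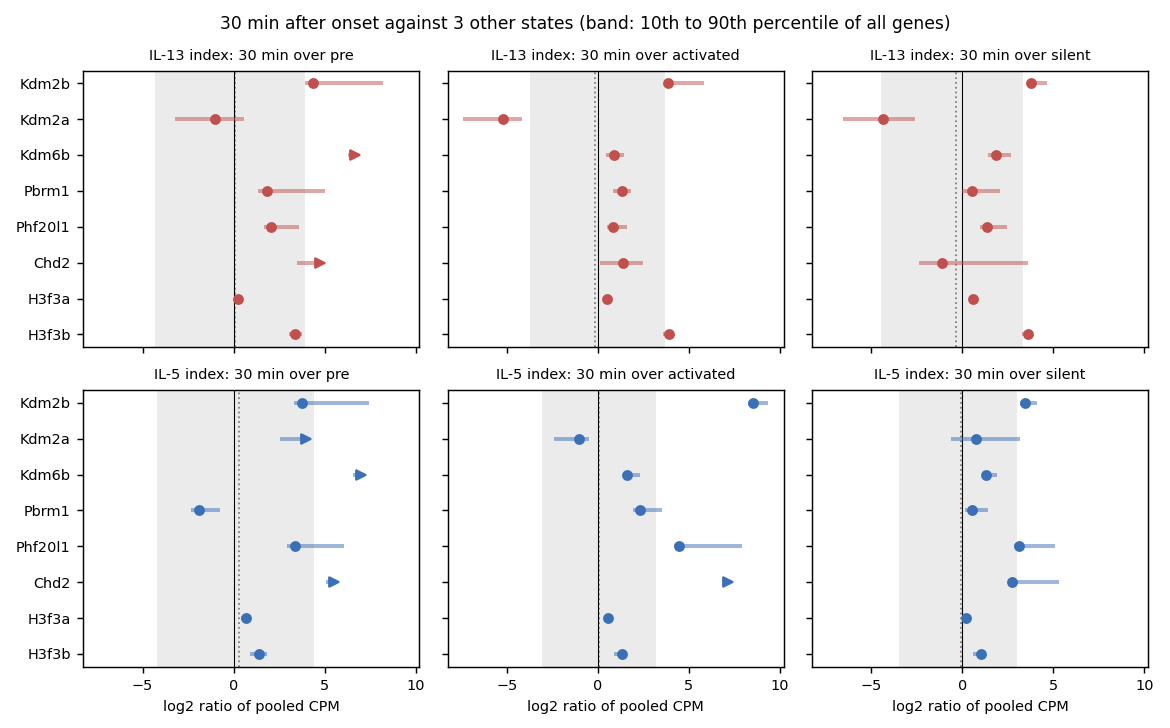
Log2 ratio of pooled CPM at 30 min over pre-stimulation, activated and silent cells for each gene, in IL-13 cells (top) and IL-5 cells (bottom). Bars give the range when any 1 cell is left out, triangles mark ratios against fewer than 3 reads, set to 3 reads, the dotted line is the median of all genes and the grey band their 10th to 90th percentile. Kdm2b lay right of the band against activated and silent cells in both kinds of cell.

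Most cells at 30 min held reads of several of these genes. Of the 6 genes other than the H3.3 genes, a cell at 30 min had 5 or more reads of a median of 3 in IL-13 cells (2 to 5) and 4.5 in IL-5 cells (3 to 5). Pre-stimulation cells had a median of 0 (0 to 3) and 1, and activated cells 2 (1 to 5) and 1 (0 to 3). After every cell was thinned to 100000 gene reads, which 113 of the 120 cells reach, the medians for at least 1 read were 3 and 5 at 30 min and 1 and 1 before stimulation. The IL-13 cells at 60 min had a higher median, 4, while those at 90 min and silent ones had 2 each, and the IL-5 cells at 60 min, at 90 min and silent had 2, 3 and 2. Thinned activated cells had medians of 3 and 2, so that the medians of IL-13 cells at 30 min and of activated ones were equal. The thinned ranges of IL-13 cells at 30 min (2 to 5) and before stimulation (0 to 3) overlapped, and as the genes were chosen for their levels at 30 min, nothing is read from these counts. Without thinning, Kdm2b was found in 11 of 11 and 10 of 10 cells at 30 min, and Kdm2a in 2 of 11 and 4 of 10.

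Other genes of the same complexes were examined through 9 lists of 102 genes, of which 74 passed the 10 CPM minimum in each. Over pre-stimulation cells 32 were at least 2-fold higher and 21 lower at 30 min in IL-13 cells (43.2% and 28.4%, against 34.6% and 28.7% of all genes), and 30 and 28 in IL-5 cells (40.5% and 37.8%, against 38.8% and 26.7%). Over activated cells 24 were higher and 17 lower in IL-13 cells (32.4% and 23.0%, against 28.2% and 31.3% of all genes), and 28 and 20 in IL-5 cells (37.8% and 27.0%, against 28.4% and 24.6%). Genes with at most 3 reads in both groups, 2 and 3 of the 74 over pre-stimulation, were called neither higher nor lower. The median log2 ratio over pre-stimulation was 0.62 and 0.31, against 0.09 and 0.31 over all genes.

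The list of PRC1.1 partners of Kdm2b held 1 gene that was at least 2-fold above both pre-stimulation and activated cells in both kinds of cell. This was Bcor, the corepressor that scaffolds PRC1.1, with 0 reads before stimulation, 236 and 237 CPM at 30 min, in 10 of 11 and 8 of 10 cells, and 30.4 and 52.8 CPM in activated cells. At 90 min Bcor had 186 CPM in IL-13 cells and 259 CPM in IL-5 cells, the latter above the 30 min level. Of the PRC1.1 genes past the minimum 1 of 4 was higher than before stimulation and 1 lower in IL-13 cells (34.6% and 28.7% of all genes). In IL-5 cells 4 of 7 were higher and 2 lower (38.8% and 26.7% of all genes). Pcgf1, the subunit that sets PRC1.1 apart, was under the minimum in both. Among PRC2 subunits 2 of 7 were higher and 3 lower, and 2 of 6 higher and 1 lower, beside the same shares of all genes. Aebp2 was higher in both kinds of cell, at 131 and 129 CPM at 30 min against 0 and 35.5 CPM, and Rbbp4, a histone-binding subunit, lower, at 32.5 and 42.0 against 103 and 91.6 CPM. In activated cells Aebp2 had 241 and 138 CPM, no lower than at 30 min.

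Of the other demethylases 7 of 12 were higher than before stimulation and 1 lower in IL-13 cells (34.6% and 28.7% of all genes). In IL-5 cells 4 of 9 were higher and 4 lower (38.8% and 26.7% of all genes). Kdm1a, which removes methyl groups from lysine 4 of histone H3, had 601 CPM at 30 min in IL-13 cells, with reads in 9 of 11 cells, against 0 before stimulation and 46.7 in activated cells. In IL-5 cells it had 206 CPM, in 9 of 10 cells, against 64.3 and 48.2 CPM. Its IL-5 level was much the same at 60 min (204 CPM), at 90 min (172 CPM) and in silent cells (183 CPM). Riox1, Kdm5b and Jmjd6 were also past 2-fold above pre-stimulation in both kinds of cell, but at 30 min IL-13 cells had Kdm5b reads in 2 of 11 cells and Riox1 reads in 3 of 11. Jmjd6 was lower at 30 min than in activated cells in both, at 7.84 and 13.0 CPM against 40.1 and 32.4 CPM. Kdm6a, the X-linked relative of Kdm6b, had 2.24 and 3.94 CPM at 30 min. Among H3K36 methyltransferases, which set the mark that Kdm2 proteins remove, 4 of 4 were higher in IL-13 cells, against 34.6% of all genes, and 1 of 5 higher and 3 lower in IL-5 cells, against 38.8% and 26.7%. Nsd2 was higher in both, at 18.3 and 37.2 CPM against 0, in 2 of 11 and 2 of 10 cells.

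Among the other SWI/SNF subunits 9 of 18 were higher than before stimulation and 4 lower in IL-13 cells (34.6% and 28.7% of all genes). In IL-5 cells 7 of 18 were higher and 6 lower (38.8% and 26.7% of all genes). Smarce1 was higher in both kinds of cell, at 57.2 and 85.0 CPM against 10.4 and 0, and Dpf2 lower, at 0 and 12.1 CPM against 24.9 and 109. The level of Smarce1 was higher still at 60 min (113 and 123 CPM) and in activated cells (116 and 105 CPM). Of the NSL complex genes 3 of 9 were higher and 6 lower, and 3 of 8 higher and 3 lower, beside the same shares of all genes. Wdr5 (log2 ratios of 3.37 and 4.04) and Kat8 (4.11 and 1.26) were higher in both kinds of cell. Phf20, Kansl2 and Kansl3 were lower in both. Phf20, the relative of Phf20l1, had 0 reads at 30 min in both kinds of cell, which allows up to 1.12 and 0.845 CPM, against 80.9 and 42.1 CPM before stimulation and 106 and 109 CPM in activated cells. Of the other CHD remodellers 4 of 7 were higher and 1 lower, and 3 of 8 higher and 5 lower, beside the same shares of all genes. Chd1, the closest in name, had 114 and 66.2 CPM at 30 min against 33.2 and 15.7 CPM, Chd7 had 51.6 and 117 CPM, in 4 of 11 and 4 of 10 cells, against 5.64 CPM and 0 in activated cells, and Chd9 was lower in both, at 19.8 and 0 against 352 and 63.5 CPM.

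Of the H3.3 chaperones 1 of 7 was higher and 4 lower in IL-13 cells (34.6% and 28.7% of all genes). In IL-5 cells 3 of 7 were higher and 3 lower (38.8% and 26.7% of all genes). Asf1a, which hands H3.3 to the depositing complexes, was higher in both, at 102 and 99.1 CPM against 8.30 and 0, with reads in 5 of 11 and 4 of 10 cells. Atrx, a chaperone of H3.3 at repeats, was lower in both, at 10.8 and 30.1 CPM against 61.2 and 200.5 CPM, each from 1 cell at 30 min, and Hira was under the minimum in both kinds of cell. Of the other replication-independent histones 1 of 6 was higher and 1 lower, and 3 of 6 higher and 1 lower, beside the same shares of all genes. H1f0, a linker histone, had 1781 CPM at 30 min in IL-13 cells against 40.4 before stimulation and 16.3 in activated cells, but 59.7% of its reads came from 1 cell and the median cell had 21.3 CPM. In IL-5 cells H1f0 had 18.9 CPM at 30 min, all in 1 cell.

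Likeness to each gene was taken as Pearson's r of log2(CPM + 1) over the 12 groups against 2650 genes with a mean of at least 50 CPM. The groups share depth and pools, so r is a description. Kdm2b was most like Gabarap (r = 0.88), Sqstm1 (0.87) and Lbh (0.86). Gabarap had 516 and 608 CPM before stimulation, 832 and 674 CPM at 30 min and 393 and 157 CPM in activated cells. Sqstm1, which encodes the autophagy receptor p62, had 10922 and 4432 CPM at 30 min against 209 and 369 CPM before stimulation. H3f3b was most like Actg1 (0.94), Actb (0.87) and Foxp1 (0.85), and both actin genes had their 30 min level higher in IL-13 cells, 6135 against 2351 CPM for Actg1 and 11748 against 5074 CPM for Actb. Kdm6b was most like Ikbke (0.97), Fam110a (0.97) and Sema6d (0.97), all at 0 reads before stimulation in both kinds of cell. H3f3a was most like Gm43305 (0.91), Eif1 (0.91) and Cish (0.89).

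Phf20l1 was most like Plscr1 (0.87), Lbh (0.85) and Irf5 (0.77), Chd2 like Golgb1 (0.94), Adam8 (0.92) and Ube2g2 (0.89), Pbrm1 like Cd84 (0.91), Rps6ka1 (0.88) and Urod (0.88), and Kdm2a like Dnajc24 (0.93), Rbmxl1 (0.92) and Fh1 (0.90). Lbh was thus shared by Kdm2b and Phf20l1. Among the 8 genes themselves r ran from -0.43 (Kdm2a and Pbrm1) to 0.81 (Kdm2b and Phf20l1). Kdm2b had r = 0.76 with Chd2, 0.74 with H3f3a, 0.73 with H3f3b, 0.41 with Kdm6b and 0.05 with Pbrm1. Chd2 and Kdm6b had 0.77. The paralogues Kdm2b and Kdm2a had r = -0.20, and H3f3a and H3f3b 0.58. As genes were chosen for their levels in these same groups, nothing is read from these values of r.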

How the data were processed

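Each of the 120 mouse ILC2s gave 1 library, prepared by the SMART-Seq v4 3' DE chemistry, and sets of 5 or 6 libraries were pooled before tagmentation. The authors aligned the reads with TopHat to GRCm38 and deposited raw HTSeq counts per gene for each cell, with 46078 Ensembl identifiers and 5 summary entries per file. The submitters' notes name TopHat2 with the builds mm10 and GRCh38, without their roles, and the annotation release and strand setting are not given in the sources used here. Of all alignments 62.0% were in genes, 28.7% were not unique, 7.42% were in no feature and 1.86% were ambiguous, and those in genes alone entered totals. A reference table gave symbols to 45143 identifiers, and positions are those of GENCODE M21.

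Source names and titles gave the groups. Reads were added up by group and gene and divided by the group's gene reads (CPM, per 1000000 reads). Log2 ratios took a group with under 3 reads at 3 reads, with the exact Clopper-Pearson 95% interval of the split of reads, and CPM carry exact Poisson intervals. A fold of 2 was called, over genes averaging 10 CPM or more, and a gene with at most 3 reads in both groups got no fold, a rule added after the data were seen. Cells had a median of 254001 gene reads (65 to 785198). Values per cell leave out 3 cells under 10000 reads, a limit chosen after the data were seen. The 8 genes and all lists were chosen with earlier results of these data known. Other genes were named by a rule: per list and direction at most 4 genes past 2-fold in both kinds of cell, by the smaller change, and per gene the 3 highest r. The text takes examples from these, and Pcgf1, Kdm6a and Hira were chosen after their values were seen. What the title dates stand for is not stated in the labels. The measures were tested on simulated data. The alternatives tried were TMM and DESeq2 scaling, averaging CPM cell by cell, shared pre-stimulation cells, single dates, no shallow cells, all transition cells, other minimums and folds, and leaving out each cell. Python 3.11.15 (numpy 2.4.6, scipy 1.17.1, pandas 2.3.3), R 4.3.3, edgeR 4.0.16 and DESeq2 1.42.0 were used, the last pair for scaling factors only.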

Additional observations from a re-analysis of the deposited data

Results flagged for a closer look

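In 34 sets of 5 or 10 cells in which a gene was measured, the highest or lowest cell was held against the others by Dixon's limit, and 15 sets had a cell past it, where chance flags about 1 in 20 groups of normally spread values. Single-cell reads with many zeros are not spread that way. All 15 were the highest cell of their set. Groups of 11 cells were not checked, which are all IL-13 groups but pre-stimulation and the IL-5 groups at 90 min and activated. Wide gaps lie there too, as for Chd2 in silent IL-13 cells (1521 against 71.3 CPM) and Kdm6b in IL-5 cells at 90 min (5902 against 1287 CPM).

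Among pre-stimulation IL-13 cells replicate 3 was the highest for 3 genes, with 297 CPM of Kdm2b against 11.9 in the next cell, 60.7 CPM of Kdm2a against 4.06 and 121 CPM of Phf20l1 against 32.5. Replicate 1 had 179 CPM of Pbrm1 against 18.5. Among pre-stimulation IL-5 cells replicate 2 had 173 CPM of Kdm2b and replicate 3 had 94.4 CPM of Phf20l1, and the next cell had 0 in both cases.

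At 30 min the IL-5 cell with 12397 CPM of H3f3b, replicate 5, stood apart from the next at 4817 CPM, and replicate 11 had 196 CPM of Kdm2a against 79.6. At 60 min IL-5 replicate 2 had 254 CPM of Phf20l1 against 2.95. Of the silent IL-5 cells, replicate 6 had 365 CPM of Kdm2b against 193, replicate 11 had 195 CPM of Kdm2a against 36.8, replicate 2 had 459.9 CPM of Kdm6b against 229.5, replicate 9 had 176 CPM of Phf20l1 against 51.3, replicate 10 had 185 CPM of Chd2 against 21.2, and replicate 3 had 5242 CPM of H3f3b against 2780.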

How the results depend on the processing

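No paired analysis was possible because the values come from no test and replicate numbers name single cells that no label pairs. Of 48 log2 ratios of 30 min to pre-stimulation, activated and silent cells, 37 were past 2-fold, and 29 of these kept their direction under every alternative run. In IL-13 cells the log2 ratio of Kdm2a to pre-stimulation turned to 0.15 with pre-stimulation cells of both kinds, 0.31 on the first title date and 0.15 with all transition cells in place of 30 min, and ranged from -3.24 to 0.58 when single cells were left out, the highest without pre-stimulation replicate 3. That of Pbrm1 turned to -0.34 with pre-stimulation cells of both kinds. On the first title date alone Chd2 had 0 reads at 30 min and before stimulation and gave no ratio between them, the ratios of Kdm2a, Pbrm1 and Chd2 to activated cells were 0.24, -0.19 and -4.61, and those of Kdm2a and Phf20l1 to silent cells were 0.52 and -0.018. The ratio of Chd2 to silent cells ranged from -2.38 to 3.60, the latter without silent replicate 6. The cause of these changes was not tested.

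The count of genes at least 2-fold above pre-stimulation, activated and silent cells at once in IL-13 cells, 2, was 4 at a fold of 1.5 and 2 to 4 when single cells were left out. At a fold of 4, the IL-13 counts above activated and above silent cells went from 4 to 2 each, and the IL-5 counts above silent cells and above all 3 states from 5 to 3 each, as a higher fold must lower them or keep them. The IL-5 count above silent cells was also 3 on the second title date, and that above all 3 states 3 with all transition cells. TMM scaling moved the median of all genes by 0.19 (pre-stimulation) and 0.16 (silent) in IL-13 cells and by 0.29 (pre-stimulation) and -0.10 (activated) in IL-5 cells, and DESeq2 size factors by 0.10, 0.18 and 0.23 (pre-stimulation, activated, silent) in IL-13 cells. Neither scaling turned the direction of a ratio past 2-fold. With 5 to 11 cells a group, a level that rests on reads in 1 or 2 cells is set by those cells.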
